A study of Drosophila melanogaster with 2 samples.

Results

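The X chromosome held 772 of the 4293 reproducible peaks of tagged Pleiohomeotic (Pho) in Drosophila melanogaster embryos. They are all X peaks of the optimal list, the peaks that passed the authors' cut-off on irreproducible discovery rate (IDR), a measure of how well replicates rank a peak alike. The other 3521 peaks lay on the autosomes: 2L, 2R, 3L, 3R and the small chromosome 4. The summit, the base of highest signal, was used as the position of each peak. Chromatin immunoprecipitation with sequencing (ChIP-seq) was done on whole embryos of mixed sex, 0 to 24 h old, from transgenic flies (strain pho-GFP) whose Pho protein ends in a C-terminal green fluorescent protein (GFP) tag, by means of an anti-GFP antibody. All samples belonged to 1 group of 2 biological replicates, numbered 3 and 4, and all embryos carried the tagged protein. Neither untagged embryos nor a control library were analysed here, and without read counts in the files the depth of each library is unknown. Males carry a single X and females a pair. The number of X copies per nucleus was therefore lower than that of autosomes by an amount the labels do not give, and its part in signal on X could not be told apart.

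The zinc fingers of Pho recognise a DNA sequence, and the protein recruits Polycomb group complexes, which keep developmental genes silent, to Polycomb response elements. It also has a place in the INO80 chromatin remodelling complex and is found at many active promoters. In Drosophila males the single X is transcribed at a raised rate by the dosage compensation (MSL) complex, which spreads from entry sites rich in GA repeats. The X also carries Sxl, the switch gene of sex determination, and polyhomeotic, a Polycomb gene present as a tandem pair.

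Summit windows of 50 bp to each side are shown here because they bear on whether the Pho motif is present. Of the 6 strongest X peaks whose window holds no annotated UTR or coding base, 4 were promoter peaks and 2 intron peaks. The G and C content of these 6 windows was between 24.8% and 34.7%. Its median was 35.6% over all X summits and 36.6% over autosomal summits, and each of the 6 windows was below both. The windows were picked to hold no UTR or coding base, and the difference was not tested. The sequences are from the RefSeq copy of release 6 of the genome (dm6), plus strand, at chrX:12751361-12751461 (CG4004, rank 7), chrX:2137266-2137366 (ph-p, rank 21), chrX:4910323-4910423 (CG32772, rank 24), chrX:1275460-1275560 (Atf3, rank 25), chrX:12752308-12752408 (CG4004, rank 27) and chrX:3742157-3742257 (Tlk, rank 31). Capitals mark matches on either strand to the motifs searched, and the rank is that of the deposited signal value among all 4293 peaks.
CG4004 rank 7: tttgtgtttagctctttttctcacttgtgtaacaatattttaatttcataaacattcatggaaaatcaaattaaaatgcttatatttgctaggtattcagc
ph-p: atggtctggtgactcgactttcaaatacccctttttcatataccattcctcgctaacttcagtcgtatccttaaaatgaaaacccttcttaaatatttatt
CG32772: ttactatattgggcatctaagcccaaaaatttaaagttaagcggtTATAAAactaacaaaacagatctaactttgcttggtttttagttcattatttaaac
Atf3: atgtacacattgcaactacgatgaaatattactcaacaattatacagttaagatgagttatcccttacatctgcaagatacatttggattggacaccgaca
CG4004 rank 27: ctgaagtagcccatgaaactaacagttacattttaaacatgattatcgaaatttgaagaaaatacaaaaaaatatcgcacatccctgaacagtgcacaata
Tlk: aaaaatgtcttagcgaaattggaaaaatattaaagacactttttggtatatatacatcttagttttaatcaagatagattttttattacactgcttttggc

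Only CG32772 had a match among them, to the TATA box TATAAA. The core of the Pho motif (GCCAT followed by A, C or T, then A or T, then C or T, on either strand) was found in none of the 6. For contrast, the strongest X windows free of annotated UTR and coding bases are shown for each of 4 motifs: Raf with the Pho core, at chrX:2297655-2297755 (rank 108), htk with TATCGATA, the DRE element of housekeeping promoters, at chrX:18843530-18843630 (rank 1223), CrebB with GGTCACACT, a motif frequent at Drosophila core promoters, at chrX:18370837-18370937 (rank 1734), and prage with GAGAGAGA, the GA repeat, at chrX:1830873-1830973 (rank 199). Stronger X peaks whose windows overlap such bases held 3 of these motifs, MFS10 (rank 34) the Pho core, RpL36 (rank 608) TATCGATA and Rnp4F (rank 991) GGTCACACT. The htk window also held AGATGGC, on the other strand, in a stretch separate from TATCGATA.
Raf: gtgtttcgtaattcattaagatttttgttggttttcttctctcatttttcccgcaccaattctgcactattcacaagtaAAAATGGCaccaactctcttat
htk: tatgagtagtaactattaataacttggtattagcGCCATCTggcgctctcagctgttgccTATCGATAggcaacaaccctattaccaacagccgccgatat
CrebB: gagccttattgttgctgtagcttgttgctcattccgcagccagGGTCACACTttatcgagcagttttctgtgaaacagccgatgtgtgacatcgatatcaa
prage: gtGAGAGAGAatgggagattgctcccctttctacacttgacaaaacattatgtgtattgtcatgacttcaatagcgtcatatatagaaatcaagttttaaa

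Over all 772 X summits, 35 (4.53%, 95% Wilson interval 3.28 to 6.24) had the Pho core within 50 bp, against 159 of the 3521 autosomal summits (4.52%). In equally wide windows 200 to 300 bp beside the summit it occurred at 4.08% on X and 3.91% on autosomes, and around all protein-coding transcript starts at 3.85% on X and 4.22% on autosomes. On X the share at summits was therefore close to that in these other windows. TATCGATA was found at 3.11% of X summits, against 3.41% of autosomal summits, at 0.712% of the X windows beside them and at 5.83% of all protein-coding starts of X. GGTCACACT was present at 1.30% of X summits and 1.48% of autosomal summits, and at 3.57% of all protein-coding starts of X. Many X summits lie away from promoters, so these shares are not directly comparable with those at starts. At X promoter peaks alone TATCGATA was found at 5.03% and GGTCACACT at 2.29%. Both values were below those at X starts, and the difference was not tested. All protein-coding starts of the autosomes held them at 4.2% and 3.7%. AGATGGC, which is part of the motif of the insulator protein CTCF and can overlap a Pho core, was found at 1.68% of X summits and 2.33% of autosomal summits, and TATAAA at 16.2% and 16.6%. In the windows beside the summits AGATGGC occurred at 1.3% on X and 0.682% on autosomes, and TATAAA at 10.5% and 12.5%. For AGATGGC the ratio of summit to side share was thus 1.3 on X and 3.42 on autosomes. On X it rests on 13 summits and 20 side windows, and the contrast was not tested. All 10 X summits with GGTCACACT and 22 of the 24 with TATCGATA were promoter peaks. GAGAGAGA was found at 1.17% of X summits, against 0.653% of autosomal summits, and CACACACA at 1.42% and 1.31%. Both repeats were more frequent beside the X summits, at 2.27% and 6.541%, and autosomal windows beside summits held them at 1.53% and 3.64%. The difference between X and autosomal summits passed the threshold for none of the 7 motifs (Fisher's exact test, two-sided, adjusted p = 1.0 for each; the smallest unadjusted p was 0.161, for GAGAGAGA). A match describes letters in the window and does not show a bound site.

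The strongest X peak lay 32 bp upstream of a start of Ugalt, the gene for the UDP-galactose transporter of the Golgi (FBgn0024994, X:2703669-2704111). The deposited signal value, which is the authors' own and is used to rank peaks within a list, was 2213 on the pooled reads, 1216 in replicate 3 and 1010 in replicate 4. It ranked 4 in the optimal list, 4 in replicate 3 and 2 in replicate 4. The median signal on pooled reads was 144 over X peaks, against 145 over autosomal peaks, and the weakest X peak had 91.9. The next X peak (X:12750868-12751667, rank 7) had signal values of 1781 on pooled reads, 1046 in replicate 3 and 739 in replicate 4. The nearest protein-coding start, that of CG4004 (FBgn0030418), was 5094 bp away, and the start within 500 bp belonged to a long noncoding RNA gene, lncRNA:CR44619 (FBgn0265830). A neighbouring peak beyond the same noncoding start (X:12752160-12752564, rank 27) had values of 1168, 722 and 450 in that order, and 3 more summits between there and Paics, a gene of purine synthesis, had pooled values of 401, 246 and 182. These 5 summits lay within 4595 bp of each other. A peak 461 bp upstream of a start of ph-p (FBgn0004861, X:2137171-2137579) had values of 1269 on pooled reads, 702 in replicate 3 and 576 in replicate 4. It lay inside the annotated span of the gene (X:2126210-2138371, minus strand), so that start is an internal one. The gene encodes a subunit of Polycomb repressive complex 1.

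In the intron of CG32772 (FBgn0052772, X:4910186-4910597), 1271 bp downstream of a start, the values were 1218 on pooled reads, 727 in replicate 3 and 489 in replicate 4. Atf3 (FBgn0028550, X:1275271-1275741), a bZIP transcription factor of the stress response, had a promoter peak with 1214, 674 and 537 in the same order. Tlk (FBgn0283657, X:3742023-3742406), the Tousled-like kinase of chromatin assembly, had an intron peak with 1062, 645 and 419. MFS10 (FBgn0030452) followed at its promoter with 963 on pooled reads, and its summit window held the Pho core. These strongest peaks stood far above the X medians of 87.1 (replicate 3) and 59.8 (replicate 4). Of the 100 strongest peaks of the genome, 18 were on X, the same share as the 18.0% that X held of all 4293 peaks.

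Among the 30 strongest X peaks 21 had promoter summits and 9 lay in introns. Over all X peaks the shares were 56.6% and 35.2%, and over the X peaks among the 2146 strongest of the genome 54.6% and 38.3%. The lower promoter share of strong X peaks described below was therefore not seen in these 30, which are few, and this was not tested. Their nearest genes include several with known roles in the nervous system: norpA, the phospholipase C of phototransduction (intron, pooled signal 730), moody, a receptor of the blood-brain barrier (promoter, 701), the cAMP phosphodiesterase gene dnc (promoters, 685 and 654) and elav, an RNA-binding protein of neurons (promoter, 521). Metabolic genes were Gapdh2 of glycolysis (promoter, 635), the hexokinase gene Hex-A (promoter, 544) and LPCAT, an acyltransferase of phospholipids (intron, 678). Signalling and transcription were represented by NFAT (intron, 679), the MAP kinase pathway kinase Raf (intron, 631), Ptpmeg2, a tyrosine phosphatase (promoter, 580), bbx, an HMG-box protein (promoter, 581), Pits, a partner of transcriptional repressors (intron, 614), and sgg, the GSK3 kinase of Wnt signalling (promoter, 516). The remaining 8 nearest genes were CG17896, CG3726, bves, CG3009, TRAM, egh, CG8034 and CG11151. Replicate 3 ranked all 30 within its first 197 entries and replicate 4 within its first 244. Hex-A and elav ranked 117 and 130 in replicate 3, and 235 and 244 in replicate 4. These genes were named by rank alone and no enrichment of their functions was tested.

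**Figure D1:**
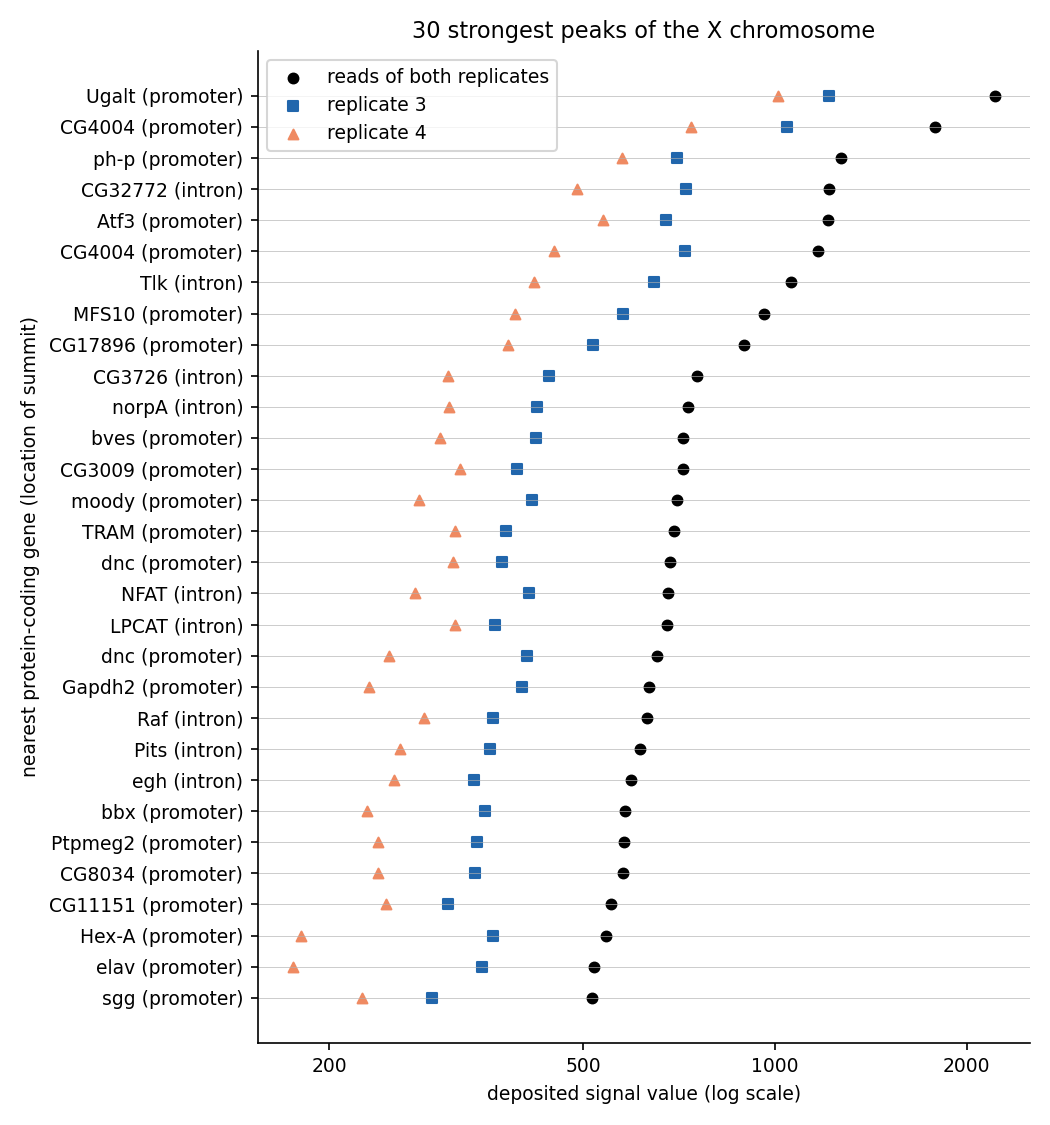
Deposited signal value (log axis) of the 30 strongest X peaks, strongest at the top, on the pooled reads of both replicates (circles), in replicate 3 (squares) and in replicate 4 (triangles), labelled by nearest protein-coding gene and location of the summit. The scale differs between libraries, so that the values of replicates 3 and 4 show only the order within each, and the pooled signal spans 2213 at Ugalt to 516 at sgg.

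The X carried more peaks per gene than the autosomes but a similar number per length of sequence. There were 35.2 peaks per 100 protein-coding genes on X (95% exact Poisson interval 32.7 to 37.7), against 29.97 on the autosomes and 28.8 to 30.8 on the 4 large autosomal arms. The ratio was 1.17 (1.08 to 1.27). Per megabase the X had 32.8 peaks and the autosomes 31.9, a ratio of 1.03 (0.949 to 1.11), with 29.99 to 33.6 on the large arms. No test over arms was made, because a permutation over 5 large arms cannot give a p below 0.2. The X has 2196 protein-coding genes with a median length of 2521 bp, against 2102 bp for autosomal genes. Per gene, the X excess was larger for summits far from starts than for those near them, and no interval was computed for either. On X, 12.8 summits per 100 genes were more than 1000 bp from any protein-coding transcript start, against 9.15 on the autosomes. Within that distance lay 22.4 per 100 genes on X and 20.8 on the autosomes. The X share of the list was 17.7% (758 peaks) when the 4293 strongest entries of replicate 3 were taken and 18.4% (788) for replicate 4, against 18.0% in the optimal list.

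A gene was called bound when a summit lay within 1000 bp of one of its transcript starts. Over the whole genome this held for 26.1% of 13945 protein-coding genes. On X 559 of 2196 genes were bound (25.5%), against 3083 of 11749 autosomal genes (26.2%). The difference was -0.785 percentage points (95% interval -2.74 to 1.24) and did not pass the threshold (Fisher's exact test, two-sided, p = 0.459).

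X peaks lay less often at promoters and more often in introns than autosomal peaks. A summit within 500 bp of any transcript start counted as a promoter peak, and 437 X peaks met this (56.6%, 53.1 to 60.1), against 2226 autosomal peaks (63.2%). The difference was -6.61 points (-10.5 to -2.80, Fisher's exact test, adjusted p = 0.00236 over 7 classes), and the large autosomal arms ranged between 61.6% and 65.9%. Introns held 272 X peaks (35.2%) and 900 autosomal peaks (25.6%, large arms 24.9% to 27.0%), a difference of 9.67 points (6.07 to 13.4, exact test, adjusted p = 7.14e-07). Intergenic peaks made up 5.83% on X and 8.78% on the autosomes (exact test, adjusted p = 0.0140), but 2 of the large arms, at 6.69% and 6.79%, were near the X. The 4 remaining classes together held 18 X peaks and none of them passed. Peaks that lie near each other and share both libraries are not independent, so these p-values are too small. Each replicate alone showed the same picture: promoter peaks were 55.7% on X and 63.2% on autosomes in replicate 3, and 55.2% and 62.5% in replicate 4, while intron peaks were 36.0% and 25.8% in replicate 3, and 35.8% and 25.5% in replicate 4.

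The annotation of the X itself differs in the same sense, with 43.4% of its bases in introns, against 38.6% of autosomal bases, and 12.6% in promoters, against 13.8%. Measured per megabase of the class, promoter sequence of X and autosomes held the same density, with 147 peaks on each (ratio 1.00, 0.904 to 1.11). X introns held 26.7 peaks per megabase and autosomal introns 21.1 (ratio 1.26, 1.10 to 1.45), and the large arms ranged between 20.2 and 23.2. The intron peaks of X lay in 167 protein-coding genes and in introns with a median length of 6520 bp, against 585 genes and 5656 bp on the autosomes. In introns of 2000 bp or more the X had 24.9 peaks per megabase and the autosomes 20.3, and in shorter introns 24.2 and 16.4. These values by intron length count more sequence as intron, 11.0 Mb on X and 46.1 Mb on autosomes, against 10.2 and 42.6 Mb in the densities above. They are therefore lower and not comparable with 26.7 and 21.1. Of X intron peaks 43.0% lay within 2000 bp of a protein-coding start, against 45.9% of autosomal intron peaks.

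**Figure D2:**
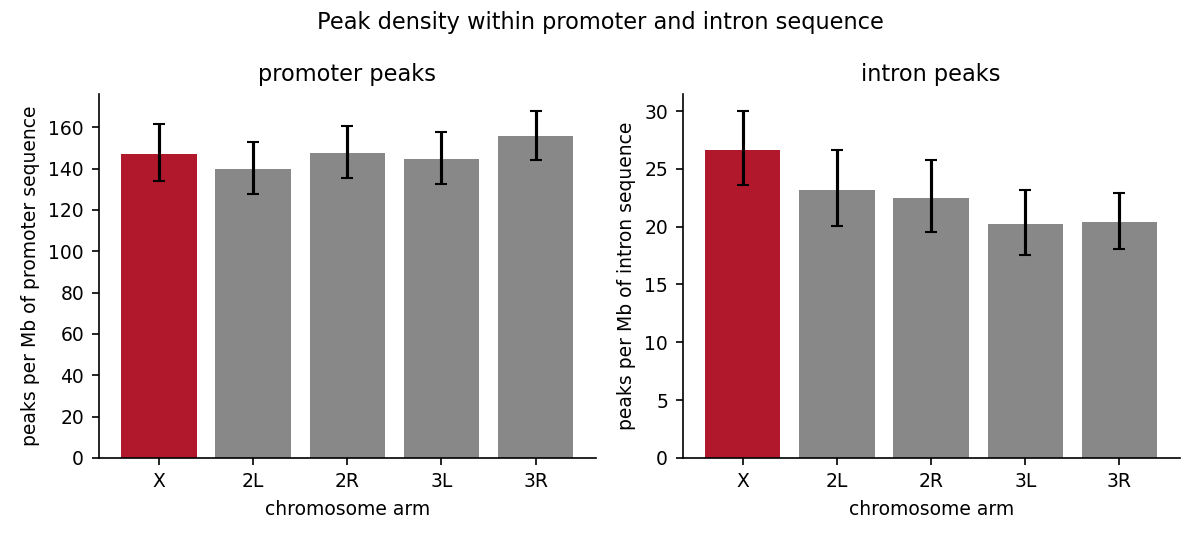
Peaks per megabase of promoter sequence (left) and of intron sequence (right) on X (red) and the 4 large autosomal arms (grey), with 95% exact Poisson intervals as bars. The X lies among the autosomal arms for promoters, at 147, and above all 4 of them for introns, at 26.7, where its interval meets those of 2L and 2R and not those of 3L and 3R.

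The lower promoter share and the higher intron share of X passed the threshold in the stronger part of the list and not in the weaker. This split was chosen after the data were seen, and its p-values are too small because neighbouring peaks are not independent. Among the 2146 strongest peaks of the genome, 54.6% of X peaks were promoter peaks, against 69.3% of autosomal peaks (large arms 66.8% to 72.3%), a difference of -14.7 points (-20.1 to -9.30, Fisher's exact test, adjusted p = 2.45e-07 over 8 comparisons). Intron peaks made up 38.3% of X peaks there and 21.8% of autosomal peaks (large arms 20.6% to 23.2%), a difference of 16.5 points (11.4 to 21.8, exact test, adjusted p = 5.20e-10). Among the 2147 weakest peaks promoter shares were 58.6% on X and 57.1% on autosomes (difference 1.45 points, -4.001 to 6.76, exact test, adjusted p = 0.611), and intron shares were 32.2% and 29.3% (2.90 points, -2.05 to 8.12, adjusted p = 0.310). The change between both parts was not itself tested, but the intervals of their differences do not meet for promoters or for introns. Replicate 3 alone gave 55.0% promoter peaks on X and 69.1% on autosomes among its 2146 strongest entries, and replicate 4 gave 54.6% and 68.8%. For bound genes the sign of the difference turned between the parts: 12.9% of X genes and 15.8% of autosomal genes had a start within 1000 bp of a peak from the strong part (-2.92 points, exact test, adjusted p = 0.00116), and 14.9% and 12.6% had one from the weak part (2.29 points, exact test, adjusted p = 0.00821).

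**Figure D3:**
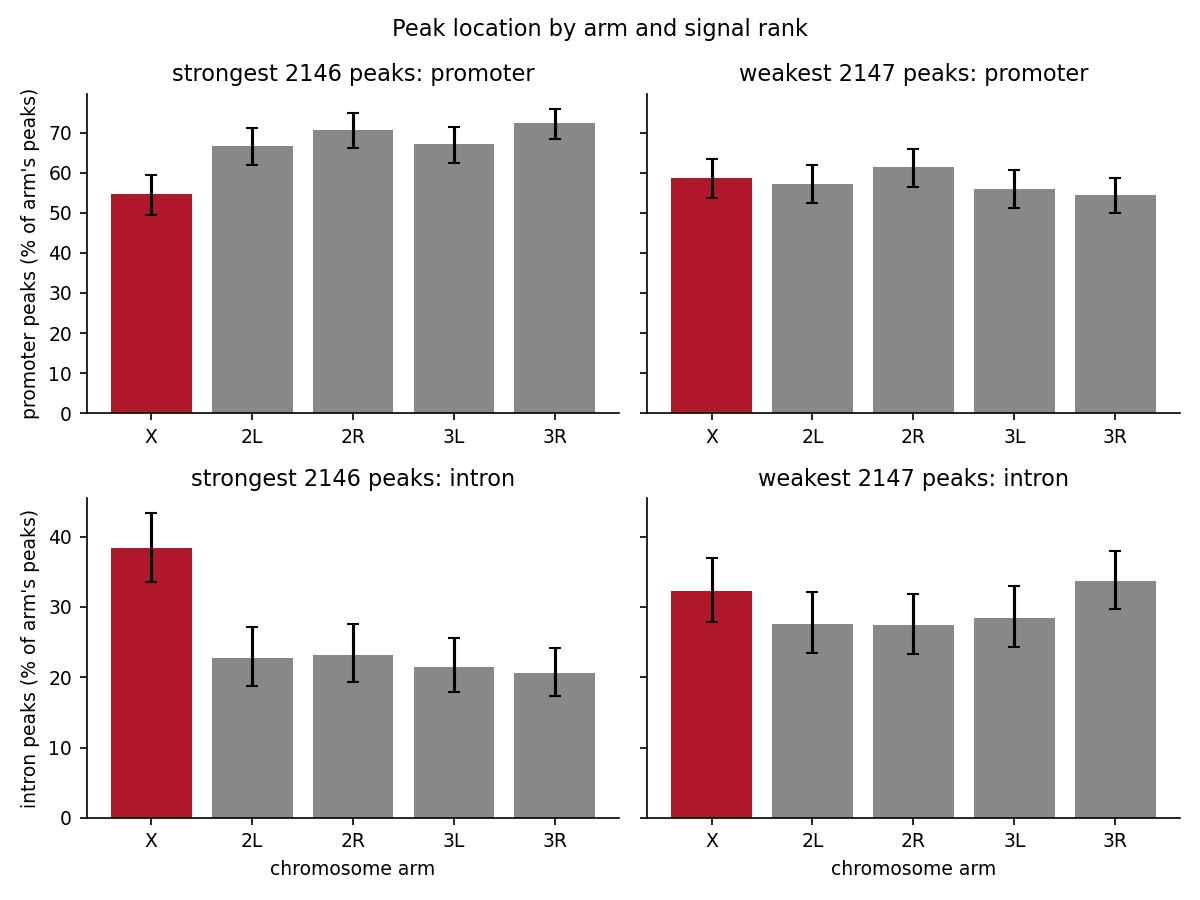
Share of each arm's peaks that were promoter peaks (top) and intron peaks (bottom), among the 2146 strongest peaks (left) and the 2147 weakest (right), for X (red) and the 4 large autosomal arms (grey), with 95% Wilson intervals as bars. In the strong part X has 54.6% promoter and 38.3% intron peaks and lies outside the range of all 4 arms, while in the weak part it lies within their range.

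Over all classes the ranks of X peaks did not differ from those of autosomal peaks past the threshold. The median rank was 2168 on X and 2142 on the autosomes, and 182 X peaks (23.6%) were among the 1073 strongest of the genome, against 891 autosomal peaks (25.3%), a difference of -1.73 points (-4.94 to 1.69, Fisher's exact test, p = 0.335). Within classes the differences were opposite, in comparisons chosen after the data were seen. Those on the 2146 strongest peaks use the same counts as the split above, divided by class totals. They are therefore the same result read another way and add no separate support. Promoter peaks had a median rank of 2212 on X (pooled signal 143) and 1952 on autosomes (154), and 47.6% of X promoter peaks were among the 2146 strongest, against 54.9% of autosomal ones (exact test, adjusted p = 0.0108 over 4 comparisons). Intron peaks had a median rank of 1947 on X (pooled signal 154) and 2438 on autosomes (134), and 53.7% of X intron peaks were among the 2146 strongest, against 42.8% (exact test, adjusted p = 0.00699). On each large arm the order was that of the autosomes, with median ranks between 1846 and 2024 for promoter peaks and between 2371 and 2538 for intron peaks. In replicate 3 the median signal of promoter peaks was 86.7 on X and 95.02 on autosomes, and that of intron peaks 90.5 and 82.3. In replicate 4 the values were 59.0 and 62.3 at promoters, and 61.4 and 54.8 in introns. With the 1073 strongest in place of the 2146 strongest neither class passed (exact test, adjusted p = 0.137 and 0.145). When only the strongest summit of each group of neighbours within 5000 bp was kept, the direction was the same but neither class passed (exact test, adjusted p = 0.207 for promoters and 0.241 for introns). The promoter difference also missed the threshold when peaks were ranked by replicate 4 alone (-4.09 points, exact test, adjusted p = 0.179), though not by replicate 3 alone (-8.26 points, adjusted p = 0.00715), and when promoters reached to 1000 bp (-4.38 points, adjusted p = 0.146). Ranks taken within the 2146 strongest peaks alone gave -0.162 points for promoters (95% interval -7.48 to 7.09). They turned the intron difference to -1.62 points (-10.9 to 7.85, exact test, adjusted p = 1.0 for both). The promoter interval includes the -7.34 points of the full list, whereas the intron interval ends below the 10.9 points of the full list.

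Promoter peaks on X also differed in their arrangement. Of the 437, 149 (34.1%, 29.8 to 38.7) had transcript starts of both strands within 500 bp, against 931 of 2226 autosomal promoter peaks (41.8%). The difference was -7.73 points (-12.5 to -2.73, Fisher's exact test, p = 0.00282, chosen after the data were seen). Among all protein-coding starts the share with starts of both strands within that distance was 23.4% on X and 26.5% on autosomes, a difference of -3.08 points (-4.66 to -1.45, Fisher's exact test, p = 0.000236). X promoter summits lay upstream of the nearest protein-coding start in 82.4% of cases, against 81.1%, at a median distance of 116 bp on X and 90.0 bp on autosomes. The start nearest to a promoter summit belonged to a protein-coding gene in 415 cases, to a noncoding RNA gene in 21 and to a tRNA gene in 1.

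Peaks were unevenly spread along the X. When each arm was divided into 5 equal lengths from the telomere to the centromere, the X had 39.7, 44.5, 38.4, 26.2 and 25.8 peaks per 100 protein-coding genes. The intervals of the second length (38.6 to 50.9) and of the last 2 lengths (21.9 to 31.0 and 20.6 to 31.8) did not meet. In each of the first 3 lengths the X value was above those of all 4 large autosomal arms, which had 25.9 to 37.2, 27.0 to 32.3 and 24.1 to 35.8, though only in the second did its interval meet that of no arm. In the fourth it was below all 4 of them (28.5 to 33.1). In the last length the X value lay inside the autosomal range, and no peak was found there on 2R.

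**Figure D4:**
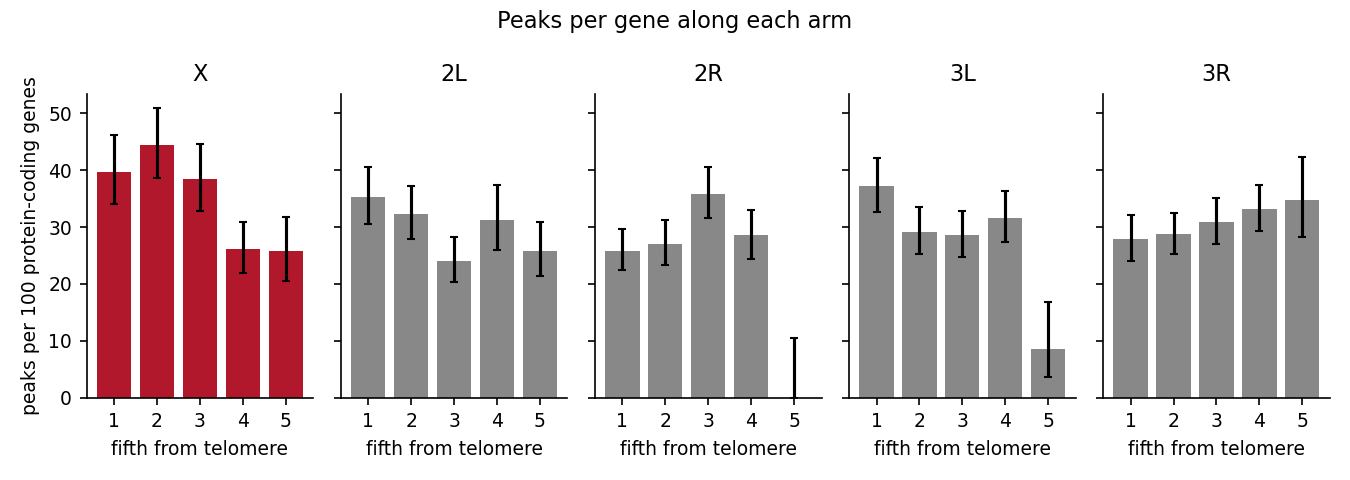
Peaks per 100 protein-coding genes in 5 equal lengths of each arm, numbered from the telomere, on X (red) and the 4 large autosomal arms (grey), with 95% exact Poisson intervals as bars. The X falls to 26.2 and 25.8 in its last 2 lengths, against 38.4 to 44.5 in its first 3.

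Of the X summits 136 (17.6%) stood in 27 runs of 4 or more summits with gaps of at most 5000 bp, against 13.8% of autosomal summits. Arm 2L, at 19.8%, was above the X, and the other large arms had 11.9% to 12.9%, so the X lay inside the autosomal range. The difference of 3.79 points (95% interval 0.998 to 6.84) was 9.65 points among the 2146 strongest peaks, and its interval included 0 without replicate 3 (-0.173 to 5.69) and with gaps of up to 10000 bp (-0.336 to 7.13). The median distance between neighbouring summits was 9134 bp on X and 10505 bp on autosomes. Intron peaks were more often in runs than promoter peaks, at 24.3% and 14.0% on X, and at 18.6% and 11.5% on autosomes. The run with the most summits was that of CHES-1-like (X:7690597-7709376), a forkhead transcription factor gene, with 11 summits of which 9 were in introns and signal values between 100.6 and 391.

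The run over CG2865 and Raf (X:2293615-2306739) had 8 summits with a median signal of 324, against 240 in that of CHES-1-like. Its 6 intron summits in Raf had pooled values of 262, 631, 295, 228, 427 and 123 from the start of the gene inwards. The run over CG3857 and Hr4 (X:1939950-1953321), where Hr4 is a nuclear receptor of the ecdysone response, had 7 summits. Its 6 intron summits in Hr4 had values of 161, 101.1, 262, 152, 391 and 164 in the same order, and in neither gene did the values decline steadily with distance from the start. The run of ph-p, D2hgdh, Pgd and bcn92 had 8 summits, that of CG42780 and CBP 6 with 4 in introns, and that of FucT6, Amun, prtp and Tango10 6, all of them at promoters. Among single genes CG1677, whose annotated span of 124709 bp holds other genes, contained 14 summits, Raf and CHES-1-like 11 each, Hr4 9 and Tlk 8.

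Within the X, the gene lists differed in how many members were bound. The lists were chosen with earlier results of these data known and are described by counts only, beside the 25.5% of all X genes and their median best rank of 2124. Bound X genes had a median length of 3851 bp and unbound ones 2237 bp, and no list was adjusted for gene length. The median was 10056 bp for signalling genes, 7013 bp for chromatin genes and 1603 bp for cytoplasmic ribosomal protein genes, against 2521 bp over all X genes. Cytoplasmic ribosomal protein genes were bound in 12 of 14 cases, each at its promoter. The strongest were RpL17 (pooled signal 366, 218 in replicate 3 and 143 in replicate 4), RpL22 (340, 203 and 133), RpS28b (318, 192 and 126) and RpL36 (291, 175 and 114). RpS10b, RpS15Aa, RpS5a, RpL37-1, RpS14b, RpS14a, RpL7A and RpS19a followed with values between 285 and 97.9, and RpL35 and RpS6 had no summit within 5000 bp. RpS14a and RpS14b are a tandem pair of near-identical copies, so that reads there may not be assigned uniquely. Of 11 mitochondrial ribosomal protein genes 2 were bound, mRpL16 (152) and mRpS25 (95.8, at a peak whose nearest start is that of nmdyn-D6). The other 9, among them mRpL14, mRpL22 and mRpL3, were not.

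Genes of Polycomb, Trithorax and chromatin factors were bound in 9 of 19 cases, with a median best rank of 1291. After ph-p came Dsp1, an HMG protein that helps recruit Polycomb complexes, with values of 435 on pooled reads, 263 in replicate 3 and 175 in replicate 4. The bromodomain gene fs(1)h had 230, 122 and 101.1, and ph-d, the distal copy of polyhomeotic, had 202, 113 and 93.0. The weaker members were mxc of the histone locus body (193), Top3beta, a topoisomerase (160), trr, a histone H3 lysine methyltransferase (152), e(y)2 of the SAGA complex (123) and the zeste gene z (121). At z replicate 3 had 77.8 and replicate 4 had no summit within 100 bp. The peaks of Dsp1, mxc, Top3beta and trr had their nearest start in a neighbouring gene, CG9921, Larp7, wuho and mRpL16, and the trr peak is the one counted for mRpL16. Bap111, CoRest and HDAC6 were among the 10 unbound members.

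In the signalling list 10 of 20 genes were bound. The strongest after sgg (516, 290 and 225) were Raf (354, 203 and 150 at the summit within 1000 bp of a start), the polarity gene par-6 (286, 183 and 104, at a peak whose nearest start is that of CG8188) and the junction scaffold gene dlg1 (220, 106 and 110). The integrin genes mys (189) and if (127), the Notch receptor gene N (144), the phosphatase gene csw (138), the TNF receptor gene wgn (113) and dx, a regulator of Notch (102), were bound at lower signal. The dx peak is also that of RpL7A and lies 1 bp from the RpL7A start. At N replicate 4 had no summit within 100 bp. Wnt5, arm and dsh were unbound, with nearest summits at 1871, 9417 and 4360 bp.

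Of 29 X-linked developmental transcription factor genes only 2 were bound, CHES-1-like (391 on pooled reads, 262 in replicate 3 and 128 in replicate 4) and usp, the partner of the ecdysone receptor (173, 100.9 and 72.7). Their share, 6.90%, was below the 25.5% of all X genes, although their median length of 10140 bp is above the 2521 bp of all X genes. A summit lay inside 7 of the 29 genes, against 315 of the 2196 X genes (14.3%). On this measure the list was not below the other X genes, but a longer gene has more room for a summit. The comparison was not adjusted for gene length. Hr4, with 9 summits inside, was unbound because its nearest summit was 1772 bp from a start. The homeobox genes B-H1 and B-H2 had their nearest summits at 67035 and 13623 bp. No summit was within 1000 bp of a start of the 25 chemosensory receptor, 6 eggshell or 4 cuticle protein genes. Gr10a, Gr10b and Gr2a, Cp36, Cp38 and Cp7Fa, and Cpr11A, Cpr11B and Cpr12A are the first unbound members of these lists by name.

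**Figure D5:**
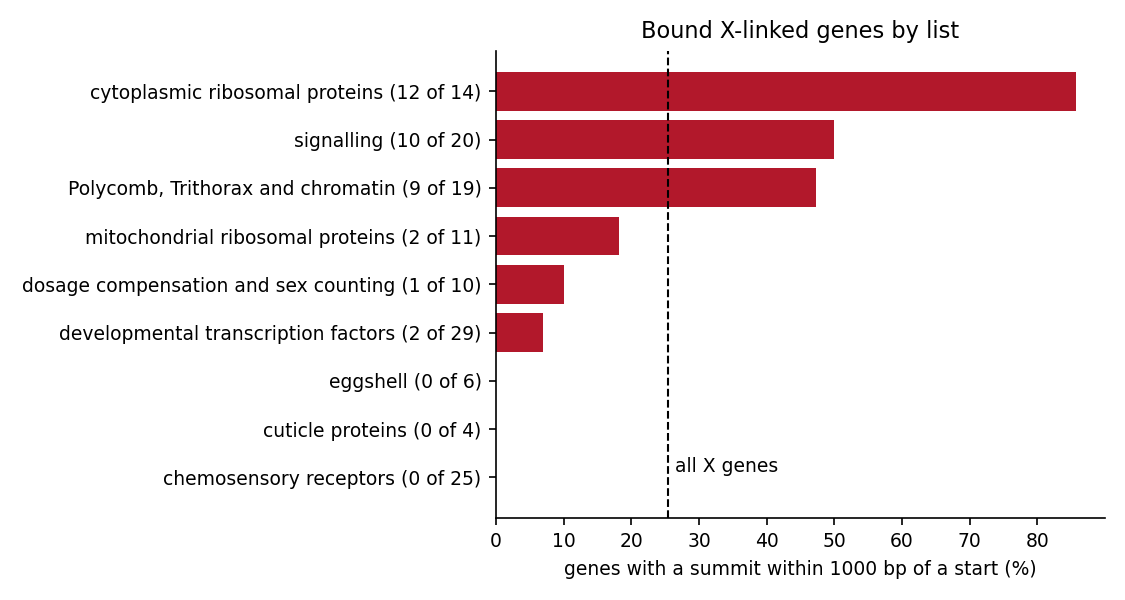
Share of the members of each list that had a summit within 1000 bp of a transcript start, with counts beside the list names, and the share of all X genes, 25.5%, as a dashed line. Cytoplasmic ribosomal protein genes stand highest, with 12 of 14, and the eggshell, cuticle and chemosensory lists have none.

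Of the genes of dosage compensation and sex counting 1 of 10 was bound. Sxl, which keeps dosage compensation off in females, had its strongest such summit 359 bp from a start. The signal values there were 183 on pooled reads, 84.8 in replicate 3 and 95.6 in replicate 4. A weaker summit, with a pooled signal of 114, lay 47 bp from a start of Sxl. The roX genes, whose noncoding RNAs are part of the MSL complex and whose loci are entry sites of it, had their nearest summits at 5961 bp (roX1, pooled signal 100.6) and 1459 bp (roX2, 171). The nearest summit to mof, the histone acetyltransferase of the complex, was 2780 bp away (128). The other 6 members, among them the X-linked signal elements that count X chromosomes, had nearest summits between 4113 and 91666 bp away.

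Both replicates had a summit within 100 bp of 736 X peaks (95.3%) and of 3317 autosomal peaks (94.2%), and the difference of 1.13 points (-0.740 to 2.65) did not pass (Fisher's exact test, p = 0.227). No X peak lacked a summit in both. Because optimal peaks were called on the reads of both replicates, this overlap is partly built in. The replicate lists were used whole, with 30000 entries each that include background, so a match need not be a reproducible peak. Across peaks with a summit in both, signal values of the replicates had a Spearman rho of 0.743 on X and 0.731 on autosomes. These describe peaks of 2 libraries and are not independent samples. The median ratio of signal in replicate 3 to that in replicate 4 was 1.48 on X and 1.53 on autosomes.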

How the data were processed

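Chromatin was sonicated to 200 to 800 bp, per the labels. Peaks were called on each replicate and on both together, against 1 shared control file, and the optimal list is what passed the IDR cut-off, per the read-me texts that the authors deposited. Aligner, peak caller and cut-off: not given in the sources used here. The deposited signal value of each peak is the authors' own; its scale differs between libraries and it was used for ranks within a list. The deposited −log10 q-value was at its highest for 90.7% of X peaks and was not used. Depth is unknown, and intervals cover counting error only.

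Lists on dm6 were used, with those on dm3 as an alternative. Gene models came from Ensembl release 115, without transposable elements, and sequence from RefSeq release 6. Coordinates are 1-based. Summits were classed as promoter (within 500 bp of a transcript start) and otherwise, in this order, by UTR of the 5' side, coding exon, UTR of the 3' side, exon of noncoding genes, intron or intergenic sequence. Replicate summits were matched within 100 bp. Shares on X and autosomes were compared with Fisher's exact test (scipy 1.17.1, two-sided, threshold 0.05), adjusted by Benjamini and Hochberg within each family. Intervals of shares are Wilson, of differences Newcombe and of densities exact Poisson. The share test, the motif search and the run finder were checked on simulated data. The simulated counts were independent, so this check does not cover the grouping of neighbouring peaks.

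The X peaks, the lists, motifs and tests were chosen with earlier results of these data known. Genes were named as nearest to the 30 strongest X peaks, as bound members of the lists with up to 3 unbound ones by name, in the 6 runs with the most summits, and at printed sequences. Comparisons by strength within classes, of divergent starts and by stronger and weaker part, with the intron share under all alternatives and 1 summit per group within 5000 bp, were chosen once values had been seen. The genes holding most summits were named after their values were seen. The samples are labelled biological replicates; p-values over peaks do not measure the spread between them.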

Additional observations from a re-analysis of the deposited data

How the results depend on the processing

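The promoter share of X minus that of autosomes stayed negative and past the threshold under its 9 alternatives, between -14.7 and -5.97 points, and the intron share stayed positive and past it, between 8.19 and 16.5 points. Replicate 3 alone and replicate 4 alone gave -7.55 and -7.28 points for promoters. The weakest value for promoters came with 1 summit per group within 5000 bp (exact test, adjusted p = 0.0425). The bound gene share did not pass under 8 of 9 alternatives (-1.64 to 0.704 points), but among the 2146 strongest peaks the difference was -2.92 points (Fisher's exact test, p = 0.000435). Among these the share of summits in runs was 9.65 points higher on X, against 3.79 points in the full list and 2.63 to 5.39 points under the other alternatives. The ratio of peaks per gene, 1.17, became 1.03 per megabase and was 1.12 to 1.20 otherwise. The share among the 1073 strongest peaks, the motif count of 0 and the overlap between replicates did not pass under any alternative run.

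Among intron peaks, the share in the stronger part was 10.9 points higher on X and became -1.62 points (exact test, adjusted p = 1.0) when only the 2146 strongest peaks were ranked. The promoter counterpart, -7.34 points, missed the threshold in that setting (-0.162), with 1 summit per group (-6.08), with promoters of 1000 bp (-4.38) and by the signal of replicate 4 alone (-4.09). Other distances and peak lists changed the bound counts of the lists: 2 to 4 developmental factors, 5 to 11 signalling genes, 6 to 9 chromatin genes, 9 to 12 cytoplasmic and 1 to 4 mitochondrial ribosomal protein genes. With 2000 bp in place of 1000 bp, 2 dosage compensation genes and 1 chemosensory receptor gene were bound, against 1 and 0 as reported. No paired analysis was possible because the study has 1 group. The number of X copies, the control library not used here and the unknown depth limit every level given for X.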
